A study of Mus musculus with 6 samples.

Results

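Cytosine methylation was described in the windows of 8 mouse genes, Mest, Copg2, Cdh15, Peg3, Usp29, Snrpn, Ndn and Magel2, of 32191 genes whose windows held at least 1 measured position. A window was the RefSeq gene with 5 kb on each side. The genes were chosen by measured values of the same 6 libraries, because Mest and Cdh15 had raised values in DKO replicate 1 and because coverage at these imprinted genes looked uneven. A position was described in a library where that library had at least 10 reads. The windows held 428 distinct positions of this kind, of 1456443 in the whole series. The question was whether the raised values came from positions that no other library covered, and what the positions covered by every library showed.

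The libraries were made by reduced representation bisulfite sequencing (RRBS), which cuts DNA with MspI at CCGG, converts unmethylated cytosines and reads the rest as methylated. Of 6 libraries, 3 came from DKO lines, 2 from WT lines and 1 from round spermatids of the testis, the haploid male germ cells after meiosis, which the study used as control. The DKO and WT lines were haploid embryonic stem cells of androgenetic blastocysts, all of strain C57BL/6 and cultured over feeders in 2i medium, whose kinase inhibitors hold ES cells in the undifferentiated state. The DKO lines are labelled as deleted for the H19 DMR and the IG-DMR, which control the H19 and the Dlk1 and Meg3 imprinted domains, and no member lies in those domains. DKO replicates 1, 2 and 3 were at passages 32, 31 and 29, and WT replicates 1 and 2 at passages 31 and 18. Each line is 1 library, and the labels do not say that the lines came from separate embryos, so a p-value here speaks of the spread among these 5 lines only. DKO replicate 2 and WT replicate 1 share the line name OG3 in their titles, and DKO replicate 3 and WT replicate 2 share AGH-2.

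At an imprinted gene, the copy from one parent is silenced by methylation of a differentially methylated region (DMR) that is laid down in the egg or in the sperm. The DMRs of Mest, of Peg3 and Usp29, and of Snrpn are methylated in the egg. That of Snrpn controls the domain that includes Ndn and Magel2. A region inside Cdh15 has also been described as methylated in the egg. Androgenetic cells hold paternal chromosomes without maternal ones, so the egg-derived mark has no chromosome to sit on in cells that have kept their imprints.

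The sequences of 4 starts are shown to set them beside the coverage there. They are RefSeq sequences of GRCm38.p6, the assembly of mm10, from 250 bases before to 50 bases after the start, 5′ to 3′ on the gene's strand. In Mest (chr6:30737800-30738099, plus strand) the capitals mark the MspI site CCGG, which reads the same on both strands. In Cdh15 (chr8:122848124-122848423, plus strand), Snrpn (chr7:60005150-60005449, minus strand) and Copg2 (chr6:30896745-30897044, minus strand) they mark CG pairs with at least 10 reads in any library.
Mest: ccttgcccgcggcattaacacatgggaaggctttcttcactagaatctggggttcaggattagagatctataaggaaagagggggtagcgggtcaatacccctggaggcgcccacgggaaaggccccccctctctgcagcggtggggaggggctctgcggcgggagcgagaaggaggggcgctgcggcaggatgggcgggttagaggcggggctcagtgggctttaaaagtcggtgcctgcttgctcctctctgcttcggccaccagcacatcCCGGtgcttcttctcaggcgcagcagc
Cdh15: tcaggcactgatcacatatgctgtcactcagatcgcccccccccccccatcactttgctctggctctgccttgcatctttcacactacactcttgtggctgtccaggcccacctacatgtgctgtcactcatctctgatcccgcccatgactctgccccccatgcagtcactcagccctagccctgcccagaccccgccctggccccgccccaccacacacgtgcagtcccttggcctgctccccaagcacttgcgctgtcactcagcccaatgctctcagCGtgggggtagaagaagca
Snrpn: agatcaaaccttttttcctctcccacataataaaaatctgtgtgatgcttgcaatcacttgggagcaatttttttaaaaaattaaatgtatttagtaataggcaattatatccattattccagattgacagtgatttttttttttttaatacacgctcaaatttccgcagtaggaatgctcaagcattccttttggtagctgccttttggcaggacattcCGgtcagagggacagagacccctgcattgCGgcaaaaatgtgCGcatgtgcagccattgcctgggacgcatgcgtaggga
Copg2: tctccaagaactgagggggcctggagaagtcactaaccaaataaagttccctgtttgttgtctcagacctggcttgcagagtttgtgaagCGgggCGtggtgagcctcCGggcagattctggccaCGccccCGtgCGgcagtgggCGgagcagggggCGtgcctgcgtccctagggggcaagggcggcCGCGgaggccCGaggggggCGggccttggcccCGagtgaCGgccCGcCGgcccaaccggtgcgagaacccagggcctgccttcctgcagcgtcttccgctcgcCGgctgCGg
The Mest stretch holds 17 CG pairs and 1 CCGG, and none of its cytosines reached 10 reads in any library. The Cdh15 stretch holds 7 CG pairs and no CCGG, and 1 position was read, in DKO replicate 1 alone. The Snrpn stretch holds 7 CG pairs and 1 CCGG, and the same 3 positions were read in all 6 libraries. The Copg2 stretch holds 25 CG pairs and 4 CCGG, with 19 positions read and 12 of them read in all 6 libraries. Over the 32851 promoter sequences of this kind, 52.8% hold at least 1 CCGG and 32.6% at least 2. All 116301 listed positions inside those sequences were the C or the G of a CG pair.

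Total read counts over positions lay between 197728785 and 255726544 in the lines and were 293920118 in round spermatids. In the whole series, 58.9% of the positions with at least 10 reads were single-library, meaning that exactly 1 library had 10 or more reads there, and 16% were shared by all 6. The files hold DNA methylation only, so the cell types were checked through start sites (1 kb on each side). Over 6 germ cell genes the median level was 6.20%, 8.75% and 17.1% in DKO replicates 1, 2 and 3, 11.2% and 7.45% in WT replicates 1 and 2, and 0.0358% in round spermatids. Over the 5 ES cell genes measured, the medians lay between 0.0247% and 0.0719% in the lines and were 0.0162% in round spermatids, although Pou5f1, named after its value was seen, reached 28.2% there. Feeder fibroblast genes were read at 1 or 2 start sites, too few for a check, and Sox9, Wt1, Amh and Clu, genes of testis somatic cells, were not analysed here. In such DNA, fewer methylated cells and fewer methylated copies per cell cannot be told apart.

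How uneven the coverage of the 8 windows was depended on the measure. Of the 428 distinct positions, 272 (63.6%) were single-library and 50 (11.7%) shared by all 6 libraries. Over the 24944 windows with at least 10 positions the median single-library share was 56.1% (quartiles 41.7% and 70.6%). Peg3 stood at 89.3%, Mest at 80.6%, Snrpn at 79.5% and Usp29 at 72.2%, all above the upper quartile. Magel2 at 63.2% lay inside the quartiles, as did Cdh15 at 55.9% and Ndn at 54.5%, and Copg2 at 34.6% lay below them. The share of positions covered by all 6 libraries had a median of 15.2% over these windows (quartiles 4.76% and 27.4%). It was 21.1% at Magel2, 17.9% at Copg2, 12.7% at Usp29, 10.7% at Peg3, 7.35% at Cdh15, 6.82% at Snrpn, 5.56% at Mest and 4.55% at Ndn, so Ndn lay below the lower quartile and the other 7 inside the quartiles. By the single-library share the label of unevenly covered regions holds for Mest, Peg3, Usp29 and Snrpn, and by the share covered by all 6 it holds for Ndn.

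Positions shared by all 6 libraries numbered 2 of 36 in Mest, 14 of 78 in Copg2, 5 of 68 in Cdh15, 3 of 28 in Peg3, 16 of 126 in Usp29, 3 of 44 in Snrpn, 1 of 22 in Ndn and 8 of 38 in Magel2. The windows of Mest and Copg2 overlap and have 3 positions in common, which is 8.33% of those of Mest and 3.85% of those of Copg2. Peg3 and Usp29 start head to head and have 9 positions in common, 32.1% of those of Peg3 and 7.14% of those of Usp29. Values of such neighbours are therefore not independent.

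**Figure D1:**
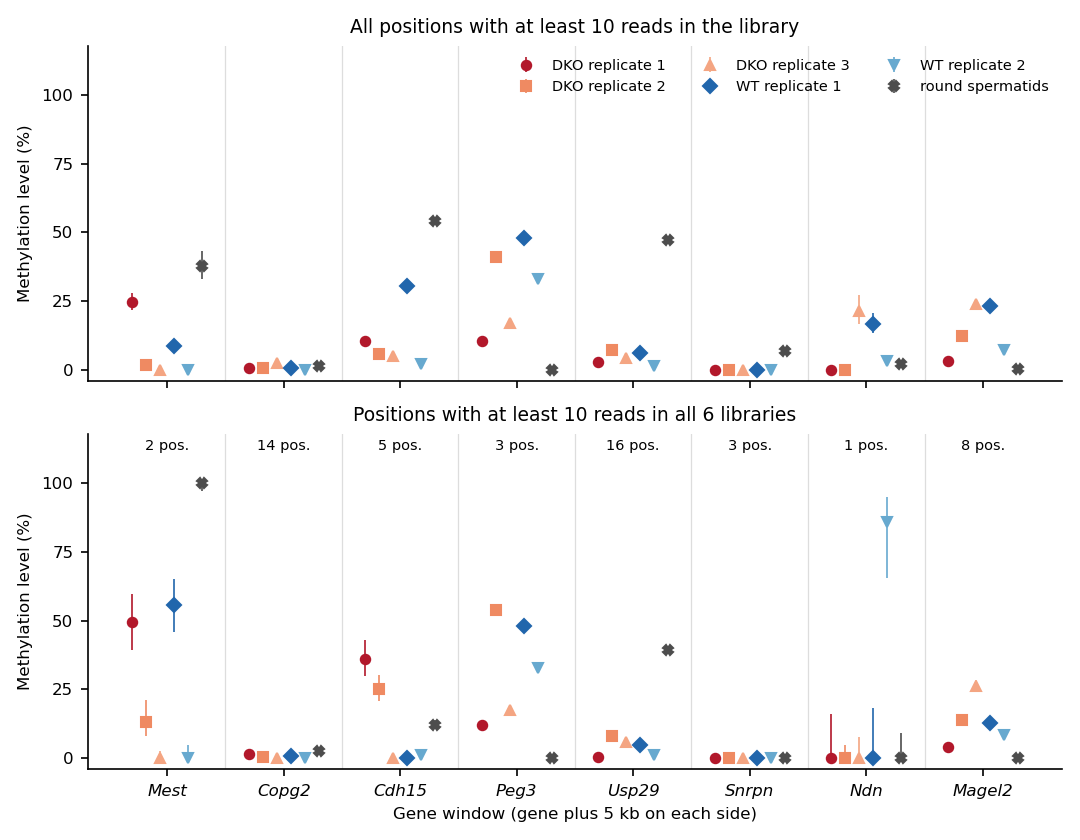
Methylation level in percent (methylated reads over all reads, bars: Wilson 95% interval of counting error) for the 8 gene windows on the x axis, with 1 symbol per library, over each library's own positions (upper) and over the positions shared by all 6 libraries (lower, with their number). DKO replicate 1 is the highest line at Mest in the upper panel with 24.8%, whereas over the 2 shared positions it has 49.4% beside 55.7% in WT replicate 1.

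Mest encodes a membrane protein of the hydrolase fold and is expressed from the paternal copy. The gene lies on chromosome 6 from 30733506 to 30748466 on the plus strand, and RefSeq starts its transcripts at 30733506, 30738050 and 30738053. Over its own positions, each library's level in the window was 24.8%, 1.86% and 0% in DKO replicates 1, 2 and 3, 8.79% and 0.0724% in WT replicates 1 and 2, and 37.9% in round spermatids. DKO replicate 1 was thus the highest of the 5 lines and below round spermatids. The 0 in DKO replicate 3 rests on 1016 reads, which allows a level of up to 0.295%. These values chose the gene and are a description. The reads behind them were few, between 738 and 1592 in the lines and 338 in round spermatids.

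With reads counted at each cytosine, the raised Mest value of DKO replicate 1 came in larger part, but not wholly, from positions that no other library covered. The methylated single-library reads were 33 at each of 3 neighbouring positions. If the same reads crossed all 3, the single-library part would be the smaller one in separate reads. Of its 183 methylated reads, 54.1% lay at 6 single-library positions, 22.4% at 4 partly shared positions (10 or more reads in some other library) and 23.5% at the 2 shared positions. The levels were 58.6% (Wilson 95% interval 51.0% to 65.7%) at the single-library positions, 8.51% at the partly shared and 49.4% (39.2% to 59.7%) at the shared positions. Such intervals cover counting error alone and are too narrow, because reads that cross several cytosines count at each of them and PCR copies are not separate molecules.

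All 99 methylated reads of the single-library class stood at 3 neighbouring positions, 30738387, 30738395 and 30738426, which lie 334, 342 and 373 bases downstream of the nearest start site. Each had 33 reads and each was 100% methylated, and whether the same reads crossed all 3 is not listed. The other 3 single-library positions of DKO replicate 1, with 19, 19 and 32 reads, were at 0%. No other library had a read at the 3 methylated positions, and what their cytosines hold in the other lines was not measured. The nearest reads were those of WT replicate 1, with 5 positions between 220 and 252 bases downstream of the start site, 269 to 271 reads each and 0% throughout. Beyond the methylated positions, DKO replicate 3 was at 0% at 548 and 717 bases downstream of the start site, on 17 and 76 reads. A methylated stretch in DKO replicate 1 and an unmethylated one in WT replicate 1 thus lay next to each other without a position in common. Upstream of the first start, 30732754 and 30732788 (at -752 and -718 bases from it) were read in both of these libraries and in no other. Both were at 0% in DKO replicate 1, on 107 reads each, and in WT replicate 1, on 16 reads each.

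With the single-library positions set aside, the Mest level of DKO replicate 1 was 14.8% (Wilson 95% interval 12.1% to 17.9%) over 6 positions. The same step gave 2.27% and 0% in DKO replicates 2 and 3, 41.9% and 0% in WT replicates 1 and 2, and 44% in round spermatids. At the 4 positions that DKO replicate 1 had in common with DKO replicate 2, the levels were 23.7% in DKO replicate 1 and 2.70% in DKO replicate 2. At the 4 it had in common with DKO replicate 3 they were 23.7% in DKO replicate 1 and 0% in DKO replicate 3. At 4 positions each, DKO replicate 1 had 14.3% against 41.9% in WT replicate 1, and 23.7% against 0% in WT replicate 2. At 3 positions it had 28.3% against 44% in round spermatids. In pooled level at identical positions, DKO replicate 1 therefore stayed above DKO replicates 2 and 3 and WT replicate 2, and below WT replicate 1 and round spermatids. Single positions were split against WT replicate 1. DKO replicate 1 was lower at 30742864 (0% against 96.4%) and higher at 30742890 (93.5% against 39.1%). Both lines were at 0% at 30732754 and 30732788. Against round spermatids it was higher at 30735330 (19.5% against 0%) and lower at 30742864 and 30742890.

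Of the partly shared positions, 30735330 carried all methylated reads. It was 19.5% methylated in DKO replicate 1 (41 of 210 reads), 0% in DKO replicates 2 and 3 with 287 and 325 reads, 0% in WT replicate 2 with 300 reads and 0% in round spermatids with 163 reads. WT replicate 1 had 3 reads there, under the minimum, and all 3 were methylated. This position is covered by 5 libraries and was above 0 in DKO replicate 1 alone among them.

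The 2 shared Mest positions, 30742864 and 30742890, lie 4811 and 4837 bases downstream of the nearest start site and also fall in the Copg2 window. At 30742864 the level was 0% in DKO replicates 1, 2 and 3, 96.4% in WT replicate 1 and 0% in WT replicate 2, and 100% in round spermatids, on 26 to 75 reads. At 30742890, 26 bases on, it was 93.5%, 20% and 0% in DKO replicates 1, 2 and 3, 39.1% and 0% in WT replicates 1 and 2, and 100% in round spermatids, on 46 to 75 reads. Round spermatids were fully methylated at both positions, and the lines ranged over nearly the whole scale and differed between neighbouring cytosines of the same line.

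**Figure D2:**
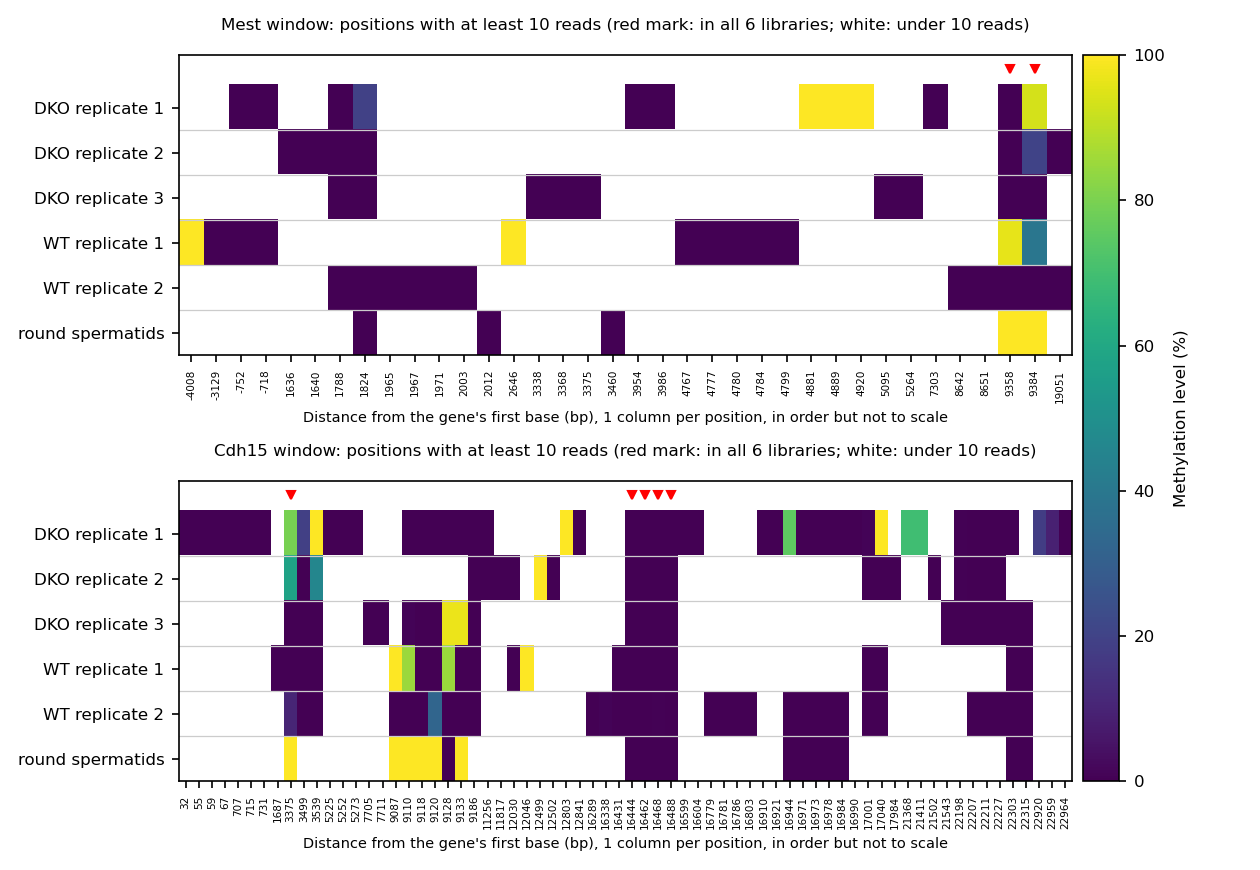
Methylation level (colour, in percent) of every position with at least 10 reads in some library, in order along the Mest window (upper, 36 positions) and the Cdh15 window (lower, 68 positions), labelled by distance in bases from the gene's first base, with 1 row per library and white for fewer than 10 reads. At Mest the 3 fully methylated positions of DKO replicate 1 (4881, 4889 and 4920) have no value in any other row, and the red marks show the 2 shared positions of Mest and the 5 of Cdh15.

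Cdh15 encodes M-cadherin, an adhesion protein of skeletal muscle cells. The gene lies on chromosome 8 from 122848374 to 122867397 on the plus strand. Over its own positions each library's level was 10.4%, 5.66% and 4.99% in DKO replicates 1, 2 and 3, 30.4% and 2.13% in WT replicates 1 and 2, and 54.2% in round spermatids. DKO replicate 1 was the highest of the DKO lines but below WT replicate 1 and round spermatids. It also had the most positions, 48, against 21 and 22 in DKO replicates 2 and 3, 22 and 33 in WT replicates 1 and 2, and 18 in round spermatids.

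At Cdh15 the value of DKO replicate 1 came mainly from positions that other libraries also covered. Of its 660 methylated reads, 29.8% lay at 22 single-library positions, 59.1% at 21 partly shared positions and 11.1% at the 5 shared positions. The levels were 14.5% (Wilson 95% interval 12.8% to 16.5%), 8.17% and 36.1% (29.8% to 43.0%). Among the partly shared positions, 122865414 was at 100% in DKO replicate 1 on 113 reads and at 0% in DKO replicate 2 and both WT lines. At 122865318 DKO replicate 1 had 75.2% on 109 reads, and WT replicate 2 and round spermatids had 0% on 16 and 14 reads. Without its single-library positions DKO replicate 1 had 9.30%, against 10.4% with them. The same step left DKO replicates 2 and 3 at 5.10% and 5.17%, WT replicates 1 and 2 at 30.3% and 2.16%, and round spermatids at 54.2%. At positions in common, DKO replicate 1 had 15.4% against 5.22% in DKO replicate 2 and 5.90% against 5.66% in DKO replicate 3. It had 11.5% against 23.6% in WT replicate 1, 9.65% against 2.33% in WT replicate 2 and 5.74% against 49.9% in round spermatids. The single-library level exceeded the shared level by 9.15 points at Mest and fell below it by 21.6 points (single-library minus shared -21.6) at Cdh15. Both signs turned with a minimum of 20 reads, to -20.7 points at Mest and 18.3 points at Cdh15, and Mest gave -49.4 points without its 3 fully methylated positions.

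The methylated single-library reads of DKO replicate 1 at Cdh15 stood at few places. Position 122861177, 12803 bases downstream of the start site, was 100% methylated on 86 reads. The pair 122869742 and 122869785, beyond the gene's end, was 69.2% methylated at each cytosine on 78 reads. Near the start site DKO replicate 1 was the only library with reads, and 7 positions within 1 kb of it had 0 methylated of 436 reads, which allows up to 0.688%. The start of Cdh15 was thus unmethylated where it was read, and the methylated positions lay far inside or behind the gene.

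The 5 shared positions of Cdh15 fell into an isolated cytosine and a group of 4. At 122851749, 3375 bases downstream of the start site, the level was 79.3%, 57.8% and 0% in DKO replicates 1, 2 and 3, 0% and 10.2% in WT replicates 1 and 2, and 100% in round spermatids, with 11 reads in WT replicate 1 and 92 to 166 elsewhere. The 4 positions between 16444 and 16488 bases were at or below 0.752% in all 6 libraries. The raised shared level of DKO replicates 1 and 2 and of round spermatids therefore came from 1 cytosine. A close neighbour, 122851913, read in all 5 lines but not in round spermatids, was 100%, 45.8% and 0% methylated in DKO replicates 1, 2 and 3 and 0% and 0.198% in WT replicates 1 and 2. WT replicate 1 had 14 reads at this neighbour. Between these cytosines, 122851873, read in the same 5 lines, was at 19.1%, 0% and 0% in DKO replicates 1, 2 and 3 (299, 185 and 210 reads) and at 0% in both WT lines (46 and 564 reads). DKO replicate 2 had raised levels at the outer cytosines and was at 0% at the cytosine between them.

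Another stretch of Cdh15, 9087 to 9133 bases downstream of the start site, gave WT replicate 1 and round spermatids their high values. DKO replicate 1 was at 0% at all 5 cytosines it covered here, on 369 reads, and DKO replicate 3 was at 97.1% at 122857502 and 122857507. In WT replicate 1, on 824 to 972 reads, 122857461 was at 100%, 122857484 and 122857502 at 84.8%, and the other 3 at 0%. WT replicate 2 was at 32.5% at 122857494 and at or below 0.148% at the other 5. In round spermatids 5 of the 6 cytosines were between 99.7% and 100% methylated, and 122857502 was at 0%. High and low cytosines lay a few bases apart in the same library, and which cytosines were high differed between libraries.

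**Figure D3:**
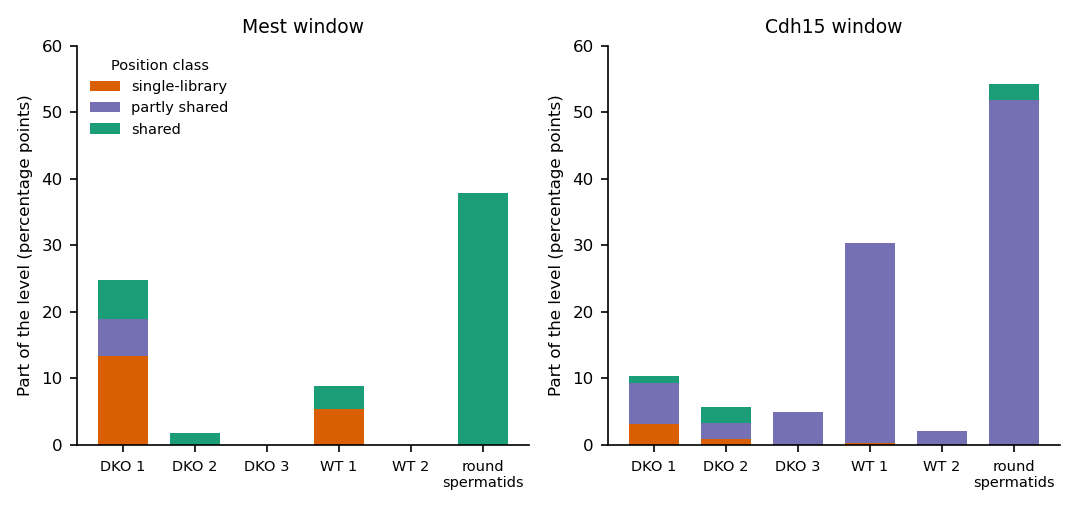
Parts of each library's own level, in percentage points, that come from single-library, partly shared and shared positions, in the Mest window (left) and the Cdh15 window (right). In DKO replicate 1 the single-library positions give 13.4 of 24.8 points at Mest and 3.11 of 10.4 points at Cdh15.

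When reads were pooled over the whole series, single-library positions were more methylated than shared ones in each library. They had 15%, 17.8% and 13.3% in DKO replicates 1, 2 and 3, 22.3% and 10% in WT replicates 1 and 2, and 48% in round spermatids. Shared positions had 4.29%, 5.36% and 4.18% in DKO replicates 1, 2 and 3, 5.74% and 2.93% in WT replicates 1 and 2, and 8.82% in round spermatids. The single-library positions were also shallower, at a median of 60 reads against 390 at shared positions in DKO replicate 1, and the part of depth or of location in this was not tested. Window by window the median difference, single-library minus shared, was 0 in the 3 DKO lines, 0 and -0.0224 points in WT replicates 1 and 2, and 15.2 points in round spermatids. In DKO replicate 1 the median window had 0.184% at single-library and 0.457% at shared positions. In that library 6088 of 18483 windows (32.9%) had a single-library level at least 5 points above the shared level and 3112 (16.8%) one at least 5 points below it. Among the members this held for Mest and Usp29, 2 of the 7 with both classes. Because the choice of Mest used this measure, nothing is read from the count.

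Most member positions were either unmethylated or fully methylated. In DKO replicate 1, 153 of the 183 distinct member positions were at 1% or less, 12 at 99% or more and 18 between. Of the 12, 8 were single-library and none was shared by all 6 libraries. In round spermatids 97 of 129 were at 1% or less and 25 at 99% or more. These shares were 83.6% and 6.56% in DKO replicate 1, where all positions of the series gave 82.9% and 5.28%, and 75.2% and 19.4% in round spermatids, where the series gave 66.6% and 26.9%. Nothing particular to the members is read from them. Neighbouring cytosines could share their read count and their level, as the 3 at Mest did, and whether such groups are copies of few DNA molecules was not tested.

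The threshold of 10 reads decided some of the classes. In the Peg3 window, 6711474 counted as single-library in DKO replicate 1 with 23 of 24 reads methylated. Just under the minimum, DKO replicate 2 had 7 of 9 reads methylated, DKO replicate 3 1 of 5, WT replicate 1 0 of 5 and WT replicate 2 5 of 9. A position called single-library is therefore not always empty in the other libraries.

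Copg2 encodes a gamma subunit of the coat of transport vesicles between Golgi and endoplasmic reticulum, and its 3′ end overlaps that of Mest. Its start was read deeply and lay at or below 0.0796% in every library. Within 1 kb of it, DKO replicates 1, 2 and 3 had 0%, 0.0796% and 0.0481%, WT replicates 1 and 2 had 0% and 0.00563%, and round spermatids 0.0336%, on 5066 to 47627 reads. Over the 14 shared positions the level was 1.52%, 0.453% and 0.0589% in DKO replicates 1, 2 and 3, 0.734% and 0% in WT replicates 1 and 2, and 2.62% in round spermatids. Without the 2 positions that belong to the Mest window, they were 0%, 0.139% and 0.0616% in the DKO lines, 0% in both WT lines and 0.0209% in round spermatids. The shared signal of the Copg2 window was thus almost wholly that of the 2 Mest positions. The Copg2 positions of a single library went as high as 100% (241 reads at 30805482 in DKO replicate 3 and 222 reads at 99.5% at 30892252 in round spermatids).

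Peg3 encodes a zinc finger protein and Usp29 a deubiquitinating enzyme, and both are paternally expressed from a common start region. That start region, where their DMR lies, was nearly unread: within 1 kb of the Peg3 start DKO replicate 1 had 1 position with 109 reads at 0%, DKO replicate 2 had 4 positions with 444 reads at 0.225%, and the other 4 libraries had none. The members' DMR itself can therefore not be compared between libraries here.

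The 3 shared Peg3 positions, 6711585, 6711589 and 6711610, lie within 26 bases, 18809 to 18834 bases downstream of the start. Their pooled level was 12.1%, 53.7% and 17.4% in DKO replicates 1, 2 and 3, 48.1% and 32.9% in WT replicates 1 and 2, and 0.0331% in round spermatids, on 1747 to 6044 reads. Every line was above round spermatids, and the DKO and WT lines overlapped. Neighbouring cytosines again differed within a line: 6711585 and 6711589, 4 bases apart, were at 0% and 26.9% in DKO replicate 1, at 60.7% and 44.2% in DKO replicate 2 and at 32.5% and 2.14% in DKO replicate 3. In WT replicates 1 and 2 they were at 54.9% and 36.3%, and at 12.2% and 52.3%.

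The 16 shared Usp29 positions, 39772 to 217707 bases downstream of its start, went the other way. Their level was 0.475%, 8.13% and 5.96% in DKO replicates 1, 2 and 3, 4.72% and 1.08% in WT replicates 1 and 2, and 39.4% in round spermatids. Most of the methylated reads of round spermatids, 1092 of 1874, stood at 6842503. There the level was 0.312%, 27% and 0.179% in DKO replicates 1, 2 and 3, 17.6% and 0.0348% in WT replicates 1 and 2, and 100% in round spermatids. At 6770391 it was 0% in DKO replicates 1, 2 and 3, 7.99% and 0.0709% in WT replicates 1 and 2, and 56.8% in round spermatids (436 of 768 reads). At 6781847 it was 0.249%, 0% and 15.7% in DKO replicates 1, 2 and 3, 0% in both WT lines, and 68.7% in round spermatids (202 of 294 reads). Round spermatids were the highest library at all 3 cytosines. They were at 100% at 6787243 too, on 66 reads, where DKO replicates 1, 2 and 3 had 10.8%, 74.4% and 68.5% and WT replicates 1 and 2 had 20.3% and 4.88%.

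Snrpn encodes a spliceosome protein and its start region is the control element of a domain that includes Ndn and Magel2. The 3 shared positions, those in capitals in the Snrpn sequence, were at 0%, 0.102% and 0% in DKO replicates 1, 2 and 3, 0.0218% and 0% in WT replicates 1 and 2, and 0% in round spermatids, on 697 to 5866 reads. The Snrpn start at 60005199 was thus read at the same cytosines in every library and lay at or below 0.102% in all 6. The zeros allow levels of up to 0.43% and 0.136% in DKO replicates 1 and 3, 0.0971% in WT replicate 2 and 0.221% in round spermatids. Over all its own positions Snrpn reached 6.99% in round spermatids, and all 117 methylated reads there stood at single-library positions.

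Ndn encodes necdin, a MAGE family protein of neurons. Within 1 kb of its start the level was 0% in the 3 DKO lines, 17.4% and 0% in WT replicates 1 and 2, and 0% in round spermatids, on 110 to 491 reads. It had 1 shared position, 62351216, which was at 0% in the 3 DKO lines and in WT replicate 1, at 85.7% in WT replicate 2 on 21 reads and at 0% in round spermatids. Over its own positions Ndn was at 0%, 0% and 21.6% in DKO replicates 1, 2 and 3, 16.6% and 3.10% in WT replicates 1 and 2, and 2.17% in round spermatids. Each raised value stood on few cytosines. The 50 methylated reads of DKO replicate 3 came from 2 single-library positions at 100% with 25 reads each, and 64 of the 65 methylated reads of WT replicate 1 from 62348483, which no other library covered.

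Magel2 encodes another MAGE family protein, and its 8 shared positions lie 570 to 3303 bases downstream of its start. Their level was 4.16%, 13.8% and 26.2% in DKO replicates 1, 2 and 3, 12.8% and 8.29% in WT replicates 1 and 2, and 0.19% in round spermatids. All lines were above round spermatids and the groups of lines overlapped. The highest line owed its place to single cytosines: DKO replicate 3 was at 99.6% at 62377549, where DKO replicates 1 and 2 were at 0%, WT replicates 1 and 2 at 0% and 0.333%, and round spermatids at 0.556%. At 62377990 the level was 0%, 37.8% and 25.6% in DKO replicates 1, 2 and 3, 60.1% and 17.4% in WT replicates 1 and 2, and 0% in round spermatids, so no line was the highest at both.

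**Figure D4:**
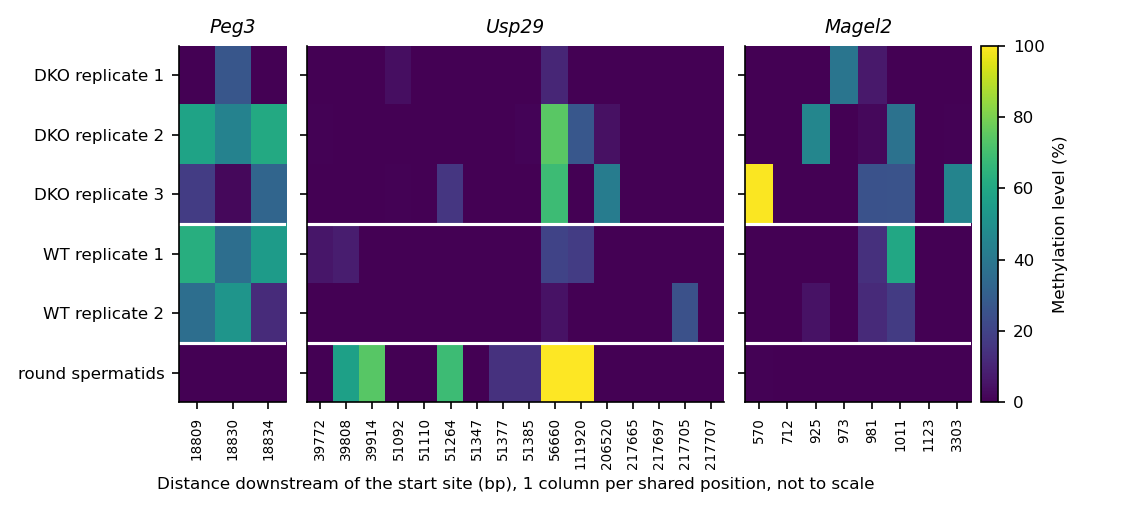
Methylation level (colour, in percent) of every position shared by all 6 libraries in Peg3 (3 positions), Usp29 (16) and Magel2 (8), ordered by distance in bases downstream of the start site, with 1 row per library and white lines between DKO lines, WT lines and round spermatids. Round spermatids are near 0 at Peg3 and Magel2 (0.0331% and 0.19% pooled) and are at 100% at 2 Usp29 positions.

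DKO and WT lines were compared at positions with at least 10 reads in all 5 lines, in windows with at least 3 such positions. Of the 8 members 6 passed that filter, and Mest with 2 positions and Ndn with 1 did not. Over the 18107 windows tested, edgeR's quasi-likelihood test called 0 (0%) at a Benjamini-Hochberg adjusted p under 0.05, and 469 had an unadjusted p under 0.05. limma, run on log2 ratios of methylated to unmethylated counts, also called 0, with 637 at an unadjusted p under 0.05. The median difference over all windows was 0.0145 points.

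Cdh15 and Mest were chosen for their values in DKO replicate 1, so their differences are descriptions without a test. Cdh15, at 8 positions, had the largest positive difference. Its level was 34.1%, 17.2% and 0% in DKO replicates 1, 2 and 3 against 0% and 0.49% in WT replicates 1 and 2, a mean of 17.1% ± 17.1 (SD, n = 3) in DKO lines against 0.245% ± 0.346 (SD, n = 2) in WT lines. The DKO minus WT difference was 16.8 points, and 3.38 points with a minimum of 20 reads. That minimum leaves out 122851749 and 122851913, where WT replicate 1 had only 11 and 14 reads. DKO replicate 3 was at or below both WT lines. Without DKO replicate 2, which also brings in positions that it does not cover, the difference was -2.71 points.

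None of the other 5 members in the fit passed the test, with an adjusted p of 1 from edgeR for each. The exact permutation tests beside it were two-sided, and their 10 splits allow no p below 0.1. Peg3 averaged 27.7% ± 22.7 (SD, n = 3) in DKO lines against 40.5% ± 10.8 (SD, n = 2) in WT lines (exact permutation p = 0.6). Magel2 averaged 13.6% ± 11.2 (SD, n = 3) against 9.63% ± 3.44 (SD, n = 2), with an exact permutation p of 0.9. Usp29 averaged 4.75% ± 3.89 (SD, n = 3) in DKO lines against 2.88% ± 2.55 (SD, n = 2) in WT lines (exact permutation p = 0.6). The differences of Copg2 and Snrpn were 0.306 and 0.0232 points (exact permutation p = 0.8 and 1). Mest, at its 2 positions, averaged 20.9% ± 25.6 (SD, n = 3) in DKO lines against 27.8% ± 39.4 (SD, n = 2) in WT lines, and Ndn, at its 1 position, differed by -42.9 points (exact permutation p = 0.4). In all 8 windows the values of DKO and WT lines overlapped. The sign of the difference turned without 1 line at Mest (8.79 points without WT replicate 1), Copg2 (-0.0918 without DKO replicate 1 and -0.0321 without WT replicate 2), Usp29 (-0.165 without WT replicate 2), Snrpn (-0.0108 without DKO replicate 2) and Magel2 (-13.1 without DKO replicate 3).

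Round spermatids are 1 library, so their difference from the lines has no test. A window counted as different where round spermatids lay at least 25 points from the mean of the 5 lines and outside their range, at positions shared by all 6 libraries and in windows with at least 3 of these. Over 17375 windows, 3016 (17.4%) lay higher in round spermatids by that rule and 32 (0.184%) lay lower. Of the 6 members that could be counted, Usp29 was higher and Peg3 lower, at 35.3 and -32.8 points for round spermatids minus the mean of the lines. The median of all windows was 0.0545 points. The Usp29 call was lost when each position had equal weight (22.6 points), and the Peg3 call held under all 10 alternatives. Round spermatids had only 3 neighbouring Peg3 positions, so these alternatives largely read the same cytosines again and are no separate evidence. Magel2 differed by -12.9 points, Copg2 by 2.07, Cdh15 by -0.486 and Snrpn by -0.0248, and none was called. Mest, with 2 positions, differed by 76.3 points and Ndn, with 1, by -17.1. The sign at Cdh15 turned at 5 reads (5.16 points), at 20 reads (0.0348), with equal weight of positions (14.1) and without DKO replicate 1 (5.43). Copg2 gave -0.0193 points without the positions of the Mest window. Without DKO replicate 2 more positions of Cdh15 were shared, and it was higher in round spermatids by 37.8 points, while without WT replicate 1 Mest passed the filter and was higher by 36.0 points.

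Genes of like kind gave the surroundings of the members. Of 21 other genes with egg-methylated DMRs, 20 windows were tested between DKO and WT lines and 0 were called by edgeR. The median DKO minus WT difference of these windows was -0.0179 points, with a range from -2.45 to 25 points. At their start sites, 14 could be read, and in DKO replicate 1 the median level was 0.0268%, from 0% at Blcap to 8.11% at Slc38a4. In the other libraries the medians lay between 0.013% and 0.108%. Of 5 genes with sperm-methylated DMRs 4 windows were tested, of 12 domain neighbours 10 and of 10 other cadherin genes 10, and edgeR called none. The differences in these 3 lists ran from -3.31 to 10 points, from -31.6 to 7.4 points and from -6.28 to 2.83 points. In DKO replicate 1 their start sites ranged from 0% (Rasgrf1) to 0.304% (Meg3), from 0% (Cpa4) to 0.0643% (Peg12) and from 0.0277% (Cdh6) to 0.0599% (Cdh22). Mest stood at 28.2% over 7 positions within 1 kb of its starts in DKO replicate 1. The 99 methylated reads behind this level are those of the 3 positions described above. They are part of the value that chose the gene, so the level is a description. At largely other positions within 1 kb, DKO replicate 3 had 0% on 93 reads and WT replicate 1 had 0% on 1385 reads. The other libraries had no position there.

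By their own-position levels over the 6 libraries, 14520 other windows with at least 10 positions in every library were set beside Mest and Cdh15. The nearest to Mest were Gm34974, Psmd4 and Itgb5, at Euclidean distances of 8.36, 9.17 and 13.4 points. Those nearest to Cdh15 were Tmem201, Mctp2 and Aurka, at 7.40, 7.94 and 9.01 points. Gm34974 had 20.9%, 5.63% and 2.68% in DKO replicates 1, 2 and 3, 4.46% and 0.796% in WT replicates 1 and 2, and 41.6% in round spermatids. Tmem201 had 14.4%, 6.46% and 6.51% in the DKO lines, 27.5% and 4.77% in the WT lines and 58.8% in round spermatids. Levels close to those of Mest and Cdh15 thus also occurred in windows that no list here names as imprinted.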

How the data were processed

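RRBS libraries of 3 DKO lines, 2 WT lines and 1 round spermatid sample were analysed. Per the labels' protocols, MspI fragments were ligated to methylated adapters, bisulfite-treated after size selection and PCR-amplified. Bismark 0.12.2 and the build mm10 come from the submitters' processing notes. How reads were trimmed and whether PCR copies were removed is not given in the sources used here. A deposited file lists positions with the authors' counts of methylated and unmethylated reads and a fraction from 0 to 1. The deposited fraction equalled methylated over all reads everywhere (tolerance 1e-09), and all levels here come from the counts. Strand is not listed. Exons, introns and UTRs were not assigned.

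Positions with under 10 reads in a compared library were left out, and reads were summed per window. DKO and WT lines were compared with edgeR 4.0.16 in R 4.3.3 (quasi-likelihood test on both counts, a term per library, a term for the methylated share by group, 1 dispersion for all windows). limma 3.58.1 (prior count 1) was the other tool. Exact permutation tests were two-sided. Intervals are Wilson 95% intervals, and a count of 0 allows up to 3 reads. Windows of RefSeq genes (GRCm38.p6) lay on chromosomes 1 to 19 and X.

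WT replicate numbers are in accession order and pair nothing. Titles pair DKO replicate 2 with WT replicate 1 and DKO replicate 3 with WT replicate 2 by line name. The deviations of the paired lines from their group means correlated at r = 0.155 and 0.0543 over 18341 windows, which are not independent. The unmatched pairs gave -0.155 and -0.0543, the exact opposites, which 2 WT lines always give, so 0.155 and 0.0543 are no separate evidence of pairing. A fit with line name as a block, in which DKO replicate 1 has no partner, is an alternative.

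All 8 members are named. For likeness the rule was the 3 nearest other windows, and a list gene is named where it was the highest or lowest of its list in DKO replicate 1. Members, lists and tests were chosen with earlier results of these data known. Alternatives were 5 or 20 reads, no flank, merged strands, equal weight of positions, other position counts and classes, limma, the block, and each line left out. Added after the data were seen were windows with 1 shared position, Copg2 without positions of the Mest window, and Mest without its 3 fully methylated positions.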

Additional observations from a re-analysis of the deposited data

Results flagged for a closer look

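Values of the 5 lines were searched for a line whose gap to the nearest other line was large against the whole range (Dixon's test at 95%). Of 16 sets of 5 values 3 were marked. Several values are tied at 0 and the sets of a gene overlap, so the count is not compared with a chance rate. At Ndn, WT replicate 2 stood alone with 85.7% at positions shared by the 5 lines, against 0% in the other 4 lines. This is 1 cytosine, 62351216, with 18 of 21 reads methylated. At Snrpn, DKO replicate 2 stood alone with 0.102% at the shared positions, where the other lines reached at most 0.0218%, and with 0.0956% over its own positions, where the others reached at most 0.0207%. These are the same 6 methylated reads, of 5866 at the shared positions. The zeros of DKO replicates 1 and 3 there allow up to 0.43% and 0.136%, so these lines are not shown to lie lower.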

How the results depend on the processing

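The count of windows called between DKO and WT lines was 0 under every alternative run, among them limma and the replicate block by line name (0 called, with 686 windows at an unadjusted p under 0.05 and a lowest adjusted p of 1, against 469 and 1 without the block). In the block fit DKO replicate 1 has a line name of its own and does not inform the DKO minus WT difference. That difference then rests on the lines paired by name. The lowest adjusted p of any alternative was 0.46, in limma. Leaving out WT replicate 1 gave the most windows at an unadjusted p under 0.05, 1220. Leaving out a line also changes which positions are shared.

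With each line left out in turn, the DKO minus WT difference ran between -0.0918 and 0.531 points at Copg2, -2.71 and 26.6 at Cdh15, -25.8 and -4.95 at Peg3, -0.165 and 4.02 at Usp29, -0.0108 and 0.0402 at Snrpn, and -13.1 and 9.06 at Magel2; Mest and Ndn reached 3 positions once each, at 8.79 without WT replicate 1 and -2.23 without DKO replicate 2. With equal weight of positions Copg2 gave -1.96 points, and with 20 reads Cdh15 gave 3.38 points, against 16.8.

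The single-library minus shared difference in DKO replicate 1 at Mest (9.15 points) was 24.3 at 5 reads, -20.7 at 20 reads, 26.1 where no other library had any read, 43.8 against positions shared with at least 1 other library, and -49.4 without the 3 fully methylated positions. At Cdh15 (-21.6 points) it was -6.89 at 5 reads, 18.3 at 20 reads, -28.8 without the flanks, -3.79 with equal weight and 5.23 against positions shared with at least 1 other library. The sign at both genes thus depended on which positions counted. At 20 reads the Mest positions 30732754 and 30732788, at 0%, became single-library, because WT replicate 1 had 16 reads at each. At Cdh15, 122851749 left the shared positions at 20 reads, because WT replicate 1 had 11 reads there. The cause of the differences themselves was not tested.

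For round spermatids minus lines, Copg2 (2.07 points) gave -0.156 without flanks, 10.7 with equal weight and -0.0193 without the Mest positions, and Usp29 (35.3) gave 22.6 with equal weight. Cdh15 (-0.486) gave 5.16 at 5 reads, 0.0348 at 20 reads and 14.1 with equal weight, so its sign turned in all 3. With each line left out, that difference ran between 36.0 and 82.8 at Mest, 0.264 and 2.10 at Copg2, -3.60 and 37.8 at Cdh15, -38.0 and -27.6 at Peg3, and 34.4 and 36.4 at Usp29. Few shared positions, from 1 to 18 a window, and 1 library per line limit all of this, and the start regions of Mest, Peg3 and Cdh15 were read in few libraries.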
